A study of Mus musculus with 8 samples.

Results

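The 4 members of the mouse MEF2 family, Mef2a, Mef2b, Mef2c and Mef2d, were followed in C2C12, a long-established line of mouse myoblasts whose cells fuse into myotubes when serum is low. The members were taken as the probes that the platform annotation pairs with exactly 1 gene, where that gene is a family member. This gave 7 of the 31769 probes on the array, of which 18976 name a single gene: 1 probe for Mef2a, 1 for Mef2b, 3 for Mef2c and 2 for Mef2d, or 4 of 14510 named genes. Cells of the 4 Neo arrays carried a control retrovirus with a Neo gene, and cells of the 4 HDAC4 arrays a retrovirus with HDAC4 and Neo. All cells had been stably selected, had reached 90% confluence and then spent 4 days in 2% horse serum, so selection and serum withdrawal were shared by both groups. Each array set Cy5-labelled RNA of the cells against Cy3-labelled murine reference RNA, with no dye swap. Separate cultures are not named for the arrays of a group, so each p-value rests on the spread among these samples alone, and that spread may be technical.

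MEF2 proteins are MADS-box transcription factors that bind an A/T-rich element as dimers and switch on muscle genes together with the MyoD family. Class IIa histone deacetylases, of which HDAC4 is a member, bind the MADS and MEF2 domains and hold MEF2 target genes silent until calcium-dependent kinases send the deacetylase out of the nucleus. The question that the family puts to these data is whether cells with added HDAC4 differ in the messenger level of the factors themselves, apart from the state of their targets.

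The values are log2 ratios of cells to reference, centred on the median of each array. The labels give the dyes but not which channel was divided by which. It was read as cells over reference because 15 probes of differentiated myotube markers averaged between 5.25 and 6.89 on the 8 arrays. That direction is likely rather than settled, and all signs below depend on it. Values of different probes are not set against each other, since each depends on the reference level of its own gene. Arrays held 19248 to 22193 values in Neo and 17014 to 18521 in HDAC4. The 2 arrays numbered 1 stood apart: they correlated at 0.945 with each other and at 0.909 or less with any other array, while pairs of the other 6 correlated at 0.936 or more. For this reason replicate 1 is shown apart in what follows. No probe is named for Hdac4, so the virus-borne gene was not analysed here and the labels were not checked against it.

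Among RefSeq promoter windows of assembly GRCm38.p6, each running from 250 bases before a gene's start to 50 after it, that of Mef2a was the only one of 6 windows for the family that held the 10-base MEF2 consensus. The consensus was searched by its degenerate form, which reads the same on both strands, and 3.19% of all 32851 windows held it. The Mef2a window (chr7:67372809-67373108, minus strand) is shown because Mef2a had the largest group difference of the family, with the consensus in capitals.
Mef2a: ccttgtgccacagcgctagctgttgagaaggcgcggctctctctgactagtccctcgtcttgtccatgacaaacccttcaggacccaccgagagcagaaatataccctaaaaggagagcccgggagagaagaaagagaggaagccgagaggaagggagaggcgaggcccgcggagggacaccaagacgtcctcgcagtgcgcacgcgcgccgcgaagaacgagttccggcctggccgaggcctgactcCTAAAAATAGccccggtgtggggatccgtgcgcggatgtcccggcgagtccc
The match lies at chr7:67372851-67372860 and spans the start of this window, from base -2 to base 8. The Mef2a gene reaches to 67376456 on the minus strand, so this start lies within the gene and not at its outer end. The 3 windows of Mef2c (chr13:83503784-83504083, chr13:83523406-83523705 and chr13:83573357-83573656, plus strand), the window of Mef2d (chr3:88142122-88142421, plus strand) and that of Mef2b (chr8:70152511-70152810, plus strand) had no match. E-boxes, the sites of MyoD-family factors, were searched as CANNTG, which also reads the same on both strands and occurs in 72.3% of all windows; no family window held both patterns, so none overlapped. They were present in the Mef2b window, at 2 places, and in 2 of the 3 Mef2c windows, and absent from those of Mef2a and Mef2d. A match is a description of the letters and no evidence of binding.

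Mef2a, a broadly expressed member that is active in muscle throughout differentiation, had the largest difference of the family, and its HDAC4 arrays lay above the same-numbered Neo array in all 4 pairs. Its centred log2 ratio was 0.21 on the Neo array numbered 1, and 1.93, 1.29 and 1.86 on Neo replicates 2, 3 and 4. On the HDAC4 arrays it was 1.58 on replicate 1, and 2.74, 2.57 and 2.99 on replicates 2, 3 and 4. Within each group the array numbered 1 was the lowest, and the groups overlapped only because HDAC4 replicate 1 lay below Neo replicates 2 and 4. The Neo mean was 1.32 ± 0.80 (SD, n = 4) and the HDAC4 mean 2.47 ± 0.62 (SD, n = 4), a ratio 2.21-fold higher in HDAC4. The probe is M200015823 and the gene lies on chromosome 7, from 67231163 to 67376456 of GRCm38.p6.

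**Figure D1:**
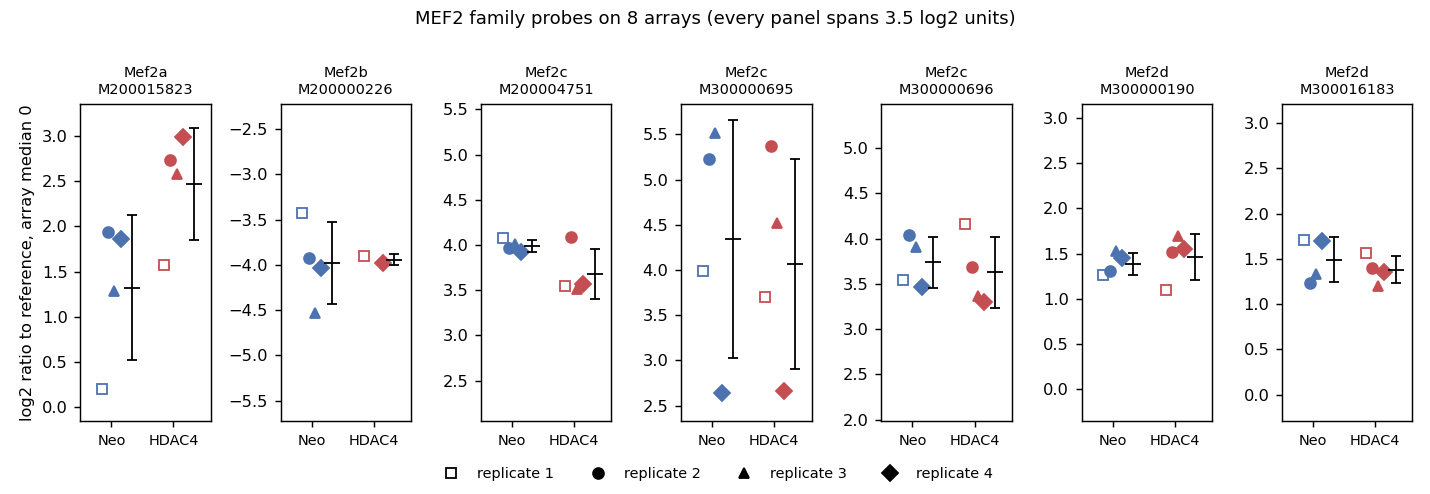
Centred log2 ratio to the reference for the 7 MEF2 family probes on 4 Neo (blue) and 4 HDAC4 (red) arrays, with replicate 1 as open squares and the mean ± SD beside each group; axes differ in position but all span the same number of log2 units. Mef2a is the probe whose HDAC4 mean (2.47) stands farthest from its Neo mean (1.32), and both of its open squares sit low.

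Whether the difference of Mef2a passed the test turned on the arrays numbered 1. With 2 groups and no further term, the log2 change was 1.15 ± 0.42 (SE; 95% interval 0.21 to 2.08), with a limma p of 0.0211 and an adjusted p of 0.599 over 16748 probes. The exact two-sided permutation test over arrays gave 0.0857, where 0.0286 is the smallest p that 4 against 4 arrays allow. In that fit 0 of the 6 family probes with enough values passed an adjusted p of 0.05 in limma, and 1 of them, Mef2a, had an unadjusted p under 0.05. Over all probes the adjusted threshold called 0.125% (0.00597% higher and 0.119% lower) and the unadjusted one 7.03% (2.63% higher and 4.4% lower).

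The arrays numbered 1 were also set against the others as a term in the fit, called here a batch although no label names one. Each group has 1 such array, so the term could not move the change of Mef2a, only its error. That error shrank, and Mef2a rose 2.21-fold with a 95% interval of 1.69 to 2.91. The log2 change was 1.15 ± 0.17 (SE; limma adjusted p = 0.0295), and Mef2a was the 1 family probe called, in a fit that called 0.645% of all probes, 0.149% as higher and 0.496% as lower. Without both arrays numbered 1 it was 1.07 ± 0.20 (SE; limma adjusted p = 0.0443), where 2.26% of all probes were called, 0.747% as higher and 1.51% as lower. With the replicate number as a block the standard error was 0.14, and the adjusted p of 0.0633 in limma did not pass, in a fit that called 0.0537% of probes, 0.0119% as higher and 0.0418% as lower. With Neo replicate 1 alone left out the log2 change was 0.77 (adjusted p = 0.516), and with HDAC4 replicate 1 alone left out it was 1.44 (adjusted p = 0.173).

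Same-numbered pairs gave a narrower picture of Mef2a than the group means. The difference between the HDAC4 and the Neo array was 1.37 in pair 1, 0.80 in pair 2, 1.29 in pair 3 and 1.13 in pair 4, or 1.74-fold to 2.58-fold. Pair 1 alone has 1 array per group and no test, and its difference was the largest of the 4. A higher HDAC4 value in all 4 pairs was seen for 10.2% of the 14746 probes measured on every array. The arrays numbered 1 lay below the others by 1.34 ± 0.20 (log2, SE), 2.53-fold, in both groups combined (limma adjusted p = 0.00484), a contrast in which 21.4% of all probes differed and 11.1% were lower.

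**Figure D2:**
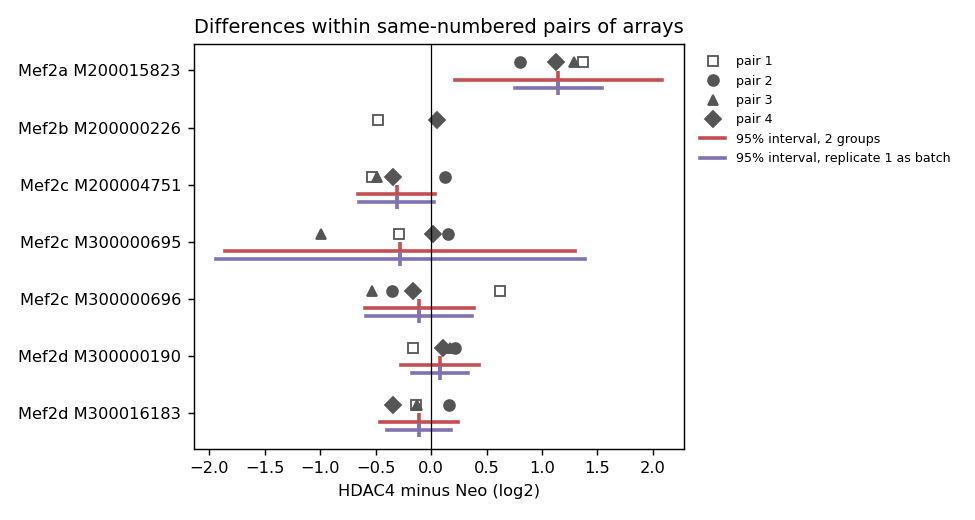
HDAC4 minus Neo in log2 units within each same-numbered pair of arrays (grey symbols, pair 1 open), with the 95% interval of the group difference from the fit with 2 groups (red) and from the fit with replicate 1 as a batch (purple). The 4 pairs of Mef2a lie between 0.80 and 1.37, while the symbols of every other probe lie on both sides of 0.

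**Figure D3:**
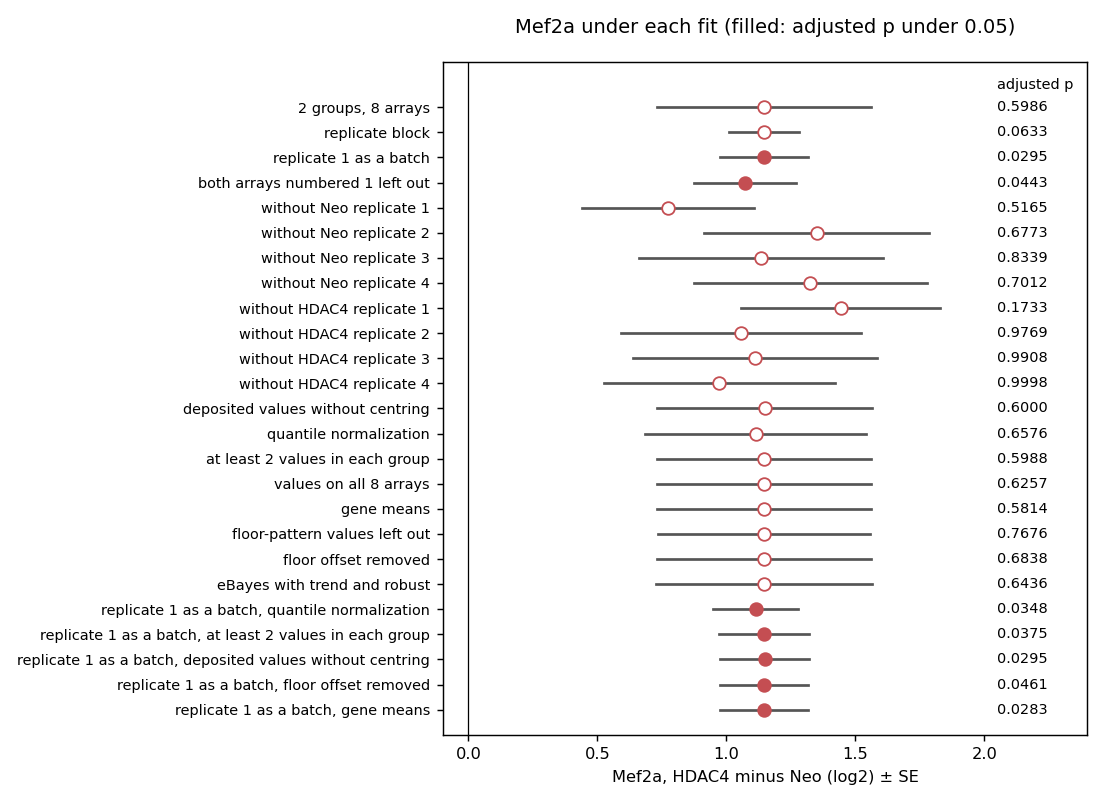
Log2 change of Mef2a ± SE under each fit, with the Benjamini-Hochberg adjusted p from limma at the right and filled points where it is under 0.05. The change lies between 0.77 and 1.44 in every fit, and the filled points are those with replicate 1 as a batch or with both arrays numbered 1 left out.

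The difference of Mef2a was also taken within each array relative to its relatives, as a change of the contrast and not as a comparison of levels. Mef2a minus the mean of the Mef2c probes was higher in HDAC4 by 1.38, and Mef2a minus the mean of the Mef2d probes by 1.16. Both contrasts were higher in the HDAC4 array of all 4 pairs, by 0.83 to 1.96 against Mef2c and by 0.61 to 1.52 against Mef2d. Each gave an exact two-sided permutation p of 0.0857 over arrays, where the groups overlapped. Over the 4 same-numbered pairs, each gave an exact sign-flip p of 0.125, the smallest that 4 pairs can give, so this design could not pass a paired exact test. These contrasts and their tests were chosen after the values were seen, and they average probes of Mef2c and of Mef2d that differ among themselves.

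Mef2c, the member that drives much of the late differentiation programme of skeletal muscle and is also a MEF2 target, was measured by 3 probes that did not behave alike, and none passed. Probe M200004751 read 4.08, 3.97, 4.01 and 3.92 on Neo replicates 1 to 4 and 3.54, 4.09, 3.52 and 3.57 on HDAC4 replicates 1 to 4. HDAC4 replicates 1, 3 and 4 therefore lay below all Neo arrays, and HDAC4 replicate 2 lay above them all. The log2 change was -0.31 ± 0.16 (SE; 95% interval -0.66 to 0.04, limma adjusted p = 0.770), and it was -0.45 without HDAC4 replicate 2 (limma adjusted p = 0.658). The exact permutation p was 0.143.

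The second Mef2c probe, M300000695, followed the replicate number rather than the group. It read 3.99, 5.22, 5.52 and 2.64 on Neo replicates 1 to 4, and 3.70, 5.37, 4.52 and 2.66 on HDAC4 replicates 1 to 4. In both groups the arrays numbered 2 and 3 were high and those numbered 4 were low. Its spread within groups (residual SD 1.24) exceeded that of 99.8% of the 14746 probes on all arrays, and the replicate number took 95.7% of its variation within groups. In an F test on the replicate number in limma, added after the data were seen, it had an adjusted p of 0.0365, and 1.36% of probes passed. Mef2a passed the same F test (adjusted p = 0.0454), its low arrays being those numbered 1, while the other 4 family probes did not (0.396 to 0.730). The group difference of M300000695 was -0.28 ± 0.70 (SE; limma adjusted p = 0.968), and -0.28 ± 0.20 (SE; limma adjusted p = 0.639) with the replicate number as a block.

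**Figure D4:**
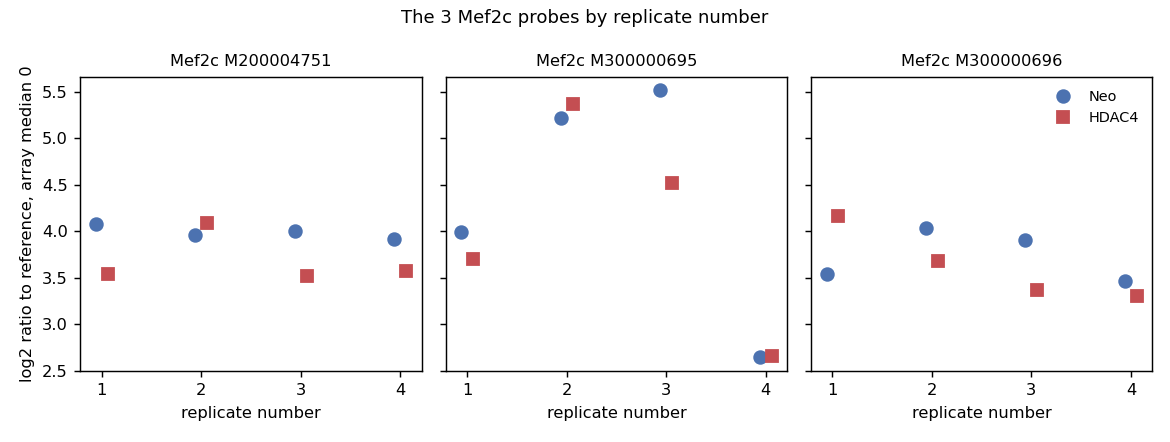
Centred log2 ratio of the 3 Mef2c probes by replicate number, with Neo as blue circles and HDAC4 as red squares. Only the middle probe, M300000695, moves widely with the number, from 2.64 and 2.66 on the arrays numbered 4 to 5.22 and 5.37 on those numbered 2.

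The third Mef2c probe, M300000696, read 3.54, 4.04, 3.90 and 3.46 on Neo replicates 1 to 4 and 4.16, 3.68, 3.37 and 3.30 on HDAC4 replicates 1 to 4. Pair 1 went up, by 0.62, and the other 3 pairs went down, by up to -0.54. The log2 change was -0.11 ± 0.22 (SE; 95% interval -0.60 to 0.38, limma adjusted p = 0.962), and -0.35 ± 0.18 (SE; limma adjusted p = 0.346) without the arrays numbered 1. Across the 8 arrays the Mef2c probes correlated with one another at only 0.16 to 0.49, as a description over arrays that share these probes' labelling. The annotation ties M300000695 to another cDNA record than the other 2, and no probe position within the transcript was used here. The 3 intervals leave a fall of Mef2c by up to 1.58-fold on M200004751, 3.62-fold on the variable probe M300000695 and 1.51-fold on M300000696 inside the error. They likewise leave a rise of up to 1.03-fold, 2.46-fold and 1.30-fold on these probes.

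Mef2d, which is expressed in most tissues and gains a muscle form through splicing, had small differences of opposite sign on its probes, and neither passed. Probe M300000190 read 1.27, 1.30, 1.53 and 1.45 on Neo replicates 1 to 4 and 1.10, 1.52, 1.69 and 1.55 on HDAC4 replicates 1 to 4. Probe M300016183 read 1.71, 1.24, 1.33 and 1.70 on the Neo arrays and 1.57, 1.40, 1.20 and 1.35 on the HDAC4 arrays. The groups overlapped on both probes. The log2 changes were 0.08 ± 0.16 and -0.11 ± 0.16 (SE; limma adjusted p of 0.961 and 0.943). Their 95% intervals, -0.27 to 0.43 and -0.46 to 0.24, leave room for a change of up to 1.35-fold upward on the first probe and 1.38-fold downward on the second.

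The probes of Mef2d also moved against each other from array to array, with a correlation of -0.54 over the 8 arrays. On the arrays numbered 1 the first probe lay 0.32 below the others and the second 0.27 above, and neither difference passed (limma adjusted p of 0.109 and 0.216). Their mean does not show that pattern.

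Mef2b, the most divergent member and best known from lymphoid cells, lay far below the reference wherever it had a value. Probe M200000226 read -3.42, -3.93, -4.53 and -4.03 on Neo replicates 1 to 4, and -3.90 and -3.98 on HDAC4 replicates 1 and 4. HDAC4 replicates 2 and 3 had no value, which left it short of the 3 values per group that the test needed. Its deposited ratio corresponded to a reference 15.6-fold above the cells in Neo and 15.2-fold in HDAC4. The groups differed by 0.04 (log2), with an exact permutation p of 0.733, where 0.0667 is the smallest possible with 4 and 2 values. Presence on 4 of 4 Neo and 2 of 4 HDAC4 arrays gave a Fisher's exact p of 0.429. Missing values were commoner on HDAC4 arrays in general: 8.12% of probes had values on all Neo arrays but not on all HDAC4 arrays, against 0.916% the other way round.

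Some probes of the series showed a pattern that a minimum of the reference signal would give, in which 10 times the ratio is a whole number. The deposited ratios carry 4 significant digits, so this pattern also arises by rounding in 1 in 10 ratios above 10 and in all ratios above 100. It was met by 2 values of M300000695, 1 value of M300000696 and no value of Mef2a, Mef2b, Mef2d or M200004751. Since no Mef2a value met the pattern, leaving such values out or removing their offset could not alter its change of 1.15.

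The genes whose 8 values were most like those of each member were taken by the highest Pearson correlation over arrays among 9569 to 9571 named probes, as a description with no test. For Mef2a they were Map3k20 (0.964), Atxn2 (0.964) and Ttyh2 (0.956), which were all lower on the arrays numbered 1, by -0.63, -0.56 and -0.44 (log2). For Mef2d, on M300000190, they were H2aj (0.978), Hdac3 (0.977) and Mrpl23 (0.965). For Mef2c, on M200004751, they were Gtpbp2 (0.934), Adam32 (0.932) and Lyar (0.925). None of these 9 genes passed between HDAC4 and Neo in limma, with adjusted p from 0.701 to 0.973, and with replicate 1 as a batch from 0.0884 to 0.893. Mef2a was itself low on the arrays numbered 1, so low values of its look-alikes on those arrays follow from how they were chosen.

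Of the repressors that act on MEF2 proteins, no probe passed. Of 12 listed genes 7 were tested, by 9 probes, of which 4 were higher and 5 lower in HDAC4, with a median of -0.20 against -0.00358 over all probes, and 0 had an unadjusted limma p under 0.05. Without the arrays numbered 1, 2 were higher and 7 lower, with a median of -0.11. Hdac5, another class IIa deacetylase, had a log2 change of -0.39 ± 0.22 (SE; limma adjusted p = 0.812) on its probe M300000992, and Hdac7, of the same class, one of -0.50 ± 0.38 (SE; limma adjusted p = 0.877). The calcineurin-binding repressor Cabin1 changed by -0.26 ± 0.16 (SE) and the deacetylase Sirt1 by -0.30 ± 0.33 (SE), with limma adjusted p of 0.837 and 0.927. Hdac9, both a MEF2 target and a MEF2 repressor, had 5 values on Neo arrays and 0 on HDAC4 arrays over its 3 probes, too few to test.

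Among coactivators and partner factors, 30 probes of 22 genes were tested and none passed with 2 groups; 17 were higher and 13 lower, with a median of 0.09. At an unadjusted limma p under 0.05 there were 2 higher and 2 lower. Myf6, a myogenic factor of mature fibres, read 3.36, 3.78, 3.65 and 3.97 on Neo replicates 1 to 4 and 2.48, 2.91, 3.24 and 2.61 on HDAC4 replicates 1 to 4. Its groups did not overlap, as for 5.25% of all probes, and its log2 change was -0.88 ± 0.20 (SE; limma adjusted p = 0.228). It fell with replicate 1 as a batch (limma adjusted p = 0.0482), but did not pass with the replicate block (0.152) or without the arrays numbered 1 (0.0570). With the offset of floor-pattern values removed beside the batch term the change was -0.33 (limma adjusted p = 0.467). Tead4, a factor that binds muscle promoters, changed by 0.55 ± 0.22 (SE; limma adjusted p = 0.657), Ppargc1a, a metabolic coactivator of MEF2, by -0.75 ± 0.31 (SE; limma adjusted p = 0.689) and the calcium-regulated factor Nfatc2, with 3 HDAC4 values, by 0.50 ± 0.21 (SE; limma adjusted p = 0.705). The other tested probes of Tead4 and Nfatc2 lay at 0.20 for Tead4 and at 0.37 and -0.20 for Nfatc2, so the Nfatc2 probes differed in sign. Mamstr, a coactivator of MEF2 in skeletal muscle that was singled out after its values were seen, changed by 0.87 ± 0.16 (SE; limma adjusted p = 0.0434) without the arrays numbered 1, and by 0.55 ± 0.42 (SE; limma adjusted p = 0.888) with all arrays.

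Kinases and phosphatases that act on MEF2 proteins or on class IIa deacetylases showed no shift as a list. Of 40 probes for 29 genes, 19 were higher and 21 lower, with a median of -0.00980, none called and 1 on each side at an unadjusted limma p under 0.05. Without the arrays numbered 1 the split was 21 higher and 18 lower, with a median of 0.05. Map2k3, which activates the p38 kinases that phosphorylate MEF2A and MEF2C, changed by 0.40 ± 0.15 (SE; limma adjusted p = 0.623), and by 0.54 ± 0.10 (SE; limma adjusted p = 0.0453) without the arrays numbered 1. The p38 gene Mapk11 changed by -0.32 ± 0.14 (SE; limma adjusted p = 0.715). The calmodulin kinase genes Camk2b and Camk2d changed by -0.82 ± 0.31 and -0.44 ± 0.22 (SE), with limma adjusted p of 0.628 and 0.770; Camk2b had 3 HDAC4 values, and the second probes of Mapk11 and Camk2d lay at -0.19 and -0.12.

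Target genes of MEF2 were more often lower than higher in HDAC4 over all arrays. Of 23 probes for 20 genes, 16 were lower and 7 higher, with a median of -0.29; without the 3 probes of Mef2c itself, 13 of 20 were lower, with a median of -0.49. Over all 16748 probes 8473 were lower, with a median of -0.00358. That background was not matched for the whole-number pattern, which 15 of the 20 probes met on 5 or more arrays. In 206 probes of the series with the pattern on all 8 arrays, median deviations were 0.04 to 0.46 on Neo arrays. On HDAC4 arrays they were -0.56 to -0.05. The part of this offset in the target shift was not tested. Without the arrays numbered 1, 11 of 20 target probes were lower and 9 higher, with a median of -0.17. These 20 include Mef2c but are not the same probes as the 23. Myoz2 (-0.93), Myom1 (-0.78) and the second Myh7 probe (-1.16), all lower over all arrays, then had too few values. The 2 splits are therefore not a like comparison. None passed with 2 groups, and 8 had an unadjusted limma p under 0.05 on the lower side and 0 on the higher side, against 4.4% and 2.63% of all probes. With replicate 1 as a batch Slc2a4, Srpk3 and Myh7 fell and no target rose, where 0.496% of all probes were called lower and 0.149% higher. The same 3 genes fell without the arrays numbered 1, where 1.51% were called lower and 0.747% higher. The list was chosen with earlier results of these data known. With the replicate block none of them passed, at limma adjusted p of 0.0606, 0.0606 and 0.128.

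Slc2a4, the insulin-responsive glucose transporter, read 3.42, 3.06, 3.16 and 2.90 on Neo replicates 1 to 4 and 2.29, 0.66, 1.41 and 0.90 on HDAC4 replicates 1 to 4. All HDAC4 arrays lay below all Neo arrays, by 3.53-fold in the mean (log2 change -1.82 ± 0.32, SE; limma adjusted p = 0.0900, and 0.0124 with the batch). Srpk3, a muscle protein kinase whose gene is a direct MEF2 target, read 4.14, 3.60, 4.34 and 3.82 in Neo and 2.67, 2.69, 3.01 and 2.61 in HDAC4. Its groups did not overlap either, and it was 2.35-fold lower (log2 change -1.23 ± 0.18, SE; limma adjusted p = 0.0509, and 0.0279 with the batch). Myh7, the slow myosin heavy chain gene, changed by -1.50 ± 0.24 (SE; limma adjusted p = 0.0619) on probe M300012833, and its adjusted p with the batch was 0.0297; a second probe, with 3 values per group, changed by -1.16 ± 0.52 (SE; limma adjusted p = 0.745). Xirp1, an actin-binding protein of striated muscle, changed by -1.07 ± 0.27 (SE; limma adjusted p = 0.298).

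The whole-number pattern was met on 5 or more arrays by 15 of the 20 target probes other than Mef2c. Among their values it was met by 65 of 111 at ratios under 100 and by 28 of 56 under 10. Over all values of the series it was met by 16.8% of ratios from 1 to 2 and 20.8% from 2 to 10. From 10 to 100 the share was 59.8%, and above that 100%. In 6 of the 15 (Ckm, Des, Hrc, Mb, Mymk and Myog) the ratio was 100 or more on at least 5 arrays, where rounding alone gives the pattern, and 9 met it on 5 or more arrays at ratios under 100. Whether a floor of the reference signal set these values was not tested. With the offset of such probes removed, 13 of the 23 probes were lower and the median was -0.14, and with the batch as well Slc2a4 alone passed (-1.27 ± 0.20, SE; limma adjusted p = 0.0491). Srpk3 then had a change of -0.68 (limma adjusted p = 0.164) and Myh7 one of -1.08 (limma adjusted p = 0.0510). Removing the offset also took Xirp1 to -0.52, Ppargc1a to -0.42 and Camk2b to -0.40, and Mamstr to 0.85.

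**Figure D5:**
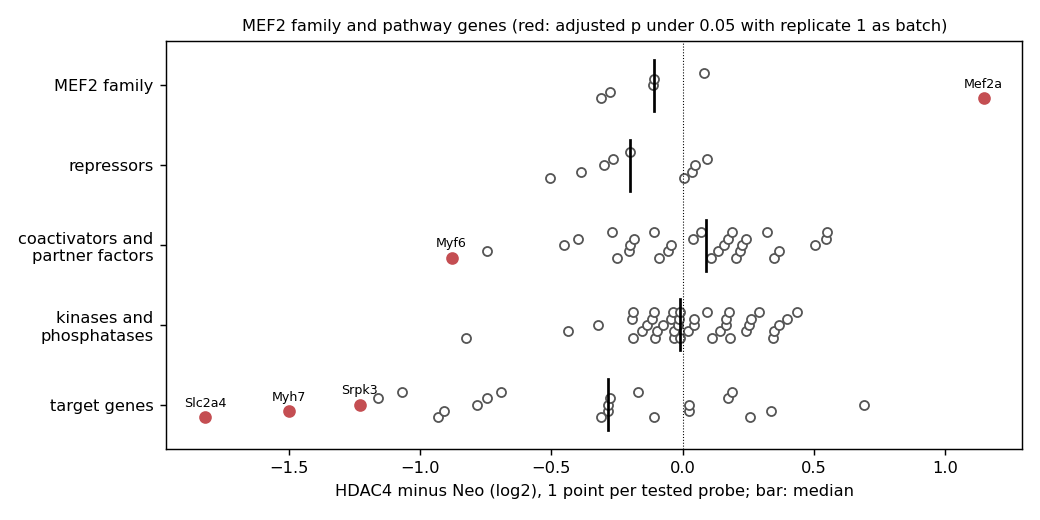
Log2 change, HDAC4 minus Neo, of each tested probe of the MEF2 family and of the 4 lists of pathway genes, with black bars at the medians and named red points where limma's adjusted p was under 0.05 with replicate 1 as a batch. Mef2a stands alone at 1.15, and the called targets Slc2a4, Myh7 and Srpk3 lie at -1.82, -1.50 and -1.23.

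Of the 22 target genes with a RefSeq promoter window, 6 held the MEF2 consensus: Jun, Klf2, Myoz2, Pgam2, Srpk3 and Xirp2. The 4 that were measured are shown with 15 bases on each side, consensus in capitals, because they carry the same kind of site as Mef2a (chrX:73774323-73774362 for Srpk3 and chr4:95052231-95052270 for Jun, then chr3:123034996-123035035 for Myoz2 and chr11:5803852-5803891 for Pgam2).
Srpk3: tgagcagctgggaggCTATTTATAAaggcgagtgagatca
Myoz2: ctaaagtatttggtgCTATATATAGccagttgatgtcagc
Pgam2: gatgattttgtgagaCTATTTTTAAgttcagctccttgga
Jun: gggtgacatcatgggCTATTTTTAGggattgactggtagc
Srpk3 lies on the plus strand and the other 3 on the minus strand, each as printed 5′ to 3′. The genes with these sites did not share a direction: Srpk3 changed by -1.23 and Myoz2, a Z-disc protein, by -0.93 with 3 Neo values (limma adjusted p = 0.490), while Pgam2, the muscle phosphoglycerate mutase, changed by 0.17 (limma adjusted p = 0.915) and Jun, an immediate early factor, by 0.34 (limma adjusted p = 0.877).

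The state of the cultures was read from marker genes. Differentiated myotube markers (8 of 10 genes with a value on every array) had a Neo mean of 6.54 ± 0.31 (SD, n = 4) and an HDAC4 mean of 6.09 ± 0.61 (SD, n = 4), and 13 of their 16 tested probes were lower in HDAC4 with none called. The arrays ranged from 6.13 to 6.89 in Neo and from 5.25 to 6.60 in HDAC4. Of the 16 probes, 7 were of Ttn and 2 of Neb, so they are not separate markers. The HDAC4 mean also holds an Actn2 value of 0.665 on replicate 2, where the other HDAC4 arrays read 6.45 to 6.99. Actn2 read 7.47 to 7.78 on the Neo arrays, so every HDAC4 array lay below them, and groups without overlap were 5.25% of all probes. Its log2 change was -2.44 ± 1.21 (SE, limma adjusted p = 0.770). At an unadjusted limma p under 0.05 there were 2 lower and 0 higher, against 4.4% and 2.63% of all probes. Ckm, Tnnc2 and Myog changed by -0.17, -0.11 and 0.19, and Mylpf by -0.24. The tested Tnnt3 probes changed by -0.43 and 0.08, and those of Neb by -0.56 and -0.38. The Ttn probes ran from -1.14 to 0.23, with -0.70 ± 0.20 on M200014444 (SE, limma adjusted p = 0.380). Proliferating myoblast markers had a Neo mean of -3.10 ± 0.20 (SD, n = 4) and an HDAC4 mean of -2.99 ± 0.25 (SD, n = 4), from -3.28 to -2.81 and from -3.19 to -2.63. Pax7 had no value on any array. Fibroblast and adipocyte markers, of which 4 of 10 genes had values on every array, averaged between -1.93 and -0.87 in Neo and between -1.24 and -0.17 in HDAC4. All 5 of their tested probes were higher in HDAC4 and none was called. The changes ran from 0.05 for Cebpa and 0.11 for Pparg to 1.29 ± 0.57 for Thy1, with 3 HDAC4 values (SE, limma adjusted p = 0.710). Members too sparse to test had more values on Neo arrays: Fabp4 4 against 0 in HDAC4, Fap 1 against 0 and Lum 3 against 2. Of the 14 probes of this list, 7 to 10 had a value on a Neo array and 5 to 7 on an HDAC4 array. Adipoq and Plin1 had no value. Of the 15 liver marker probes, 0 to 4 had a value on an array. The part of these marker shifts in the difference of Mef2a was not tested, and in bulk RNA fewer cells of a type and less RNA per cell cannot be told apart.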

How the data were processed

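RNA of 4 Neo and 4 HDAC4 samples was hybridised to 2-colour arrays. The deposited values are log2 ratios, 1 for each probe on each array, with column medians between 0.00576 and 0.0286. How the authors scaled and filtered them, and with which software, was not stated in any label or header used here. The labels' protocols name 10 µg of DNase-treated RNA and oligo dT primers for labelling, and the reference is named both as murine reference RNA and as murine liver.

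Each array was centred on its median. Of the 31769 probes, 18976 had 1 gene in the platform annotation, 404 several and 12389 none. Symbols were updated by gene identifier through RefSeq of GRCm38.p6, where 41 identifiers were absent. Probes with at least 3 values in each group (16748) were compared with limma 3.58.1 in R 4.3.3 (lmFit, eBayes), 1 feature per probe, with Benjamini-Hochberg adjustment over all of them at 0.05. The fit with 2 groups was tested on simulated data, drawn independently for each array with no effect of the array number. The fits with a batch or a block were not tested in this way. Exact permutation and Fisher tests ran in Python 3.11.15 with scipy 1.17.1. Precision is limited by the array number.

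The members, lists and rules were chosen with earlier results of these data known. The rule for named genes took every member probe, the 4 probes of each pathway list with the smallest p, and for each member the 3 most correlated genes; the other genes named were chosen after their values were seen. Alternatives were the replicate block, replicate 1 as a batch, left-out arrays, other scaling, other filters, gene means, treatment of floor-pattern values and other eBayes settings; combinations with the batch, and the floor offset for the lists, were added after the data were seen.

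Same-numbered arrays deviated together from their group means, with correlations of 0.531, 0.309, 0.208 and 0.115 for numbers 1 to 4 over 14746 probes. All lay above the limit of 0.1, so the same-numbered arrays were also compared as pairs and with a block. The main fit had no replicate term. This pairing comes from the values, not from a label, and differently numbered arrays reached 0.266. HDAC4 replicate 4 was more like Neo replicates 2 (0.266) and 3 (0.221) than Neo replicate 4 (0.115).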

Additional observations from a re-analysis of the deposited data

Results flagged for a closer look

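Within the groups of 4 arrays, 43 groups of values of the named probes were checked for an array far from the other 3 (Dixon's test at 95%), and 5 stood out, where chance gives about 1 in 20. For Mef2c on M200004751, HDAC4 replicate 2 read 4.09 while the other HDAC4 arrays read 3.52 to 3.57. The other 4 were arrays numbered 1. HDAC4 replicate 1 read -0.589 for Cabin1 and -0.0246 for Sirt1, above the other HDAC4 arrays, which read -1.12 to -1.04 and -0.68 to -0.59. Neo replicate 1 read 1.39 for Map2k3 and 6.17 for Xirp1, above the other Neo arrays, which read 0.88 to 0.95 and 5.26 to 5.34.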

How the results depend on the processing

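The count of 21 probes called between HDAC4 and Neo in limma was 9 with the replicate block (pairing by number), 108 with replicate 1 as a batch, 348 without both arrays numbered 1, 1 without floor-pattern values and 4 with the floor offset removed. With the batch and a second change it was 80 (quantile normalization), 94 (at least 2 values per group), 111 (no centring), 63 (floor offset) and 92 (gene means). With 1 array left out it ranged from 0 to 88: 74, 0, 0 and 0 without Neo replicates 1 to 4, and 88, 3, 9 and 2 without HDAC4 replicates 1 to 4. The 3 counts of 0 in limma stood beside 915, 957 and 936 probes at an unadjusted p under 0.05. Of the family probes, 1 was called (Mef2a) in each fit with replicate 1 as a batch and without both arrays numbered 1, and 0 in the others. Mef2a changed by 1.15 with the batch, also without centring, with 2 values per group, with the floor offset or with gene means; by 1.11 with the batch and quantile normalization; and by 1.07 without both arrays numbered 1. Its change ranged from 0.77 to 1.44 with 1 array left out, and it kept its direction in all 24 alternatives. Many of these could not move the change, since Mef2a has 1 probe with values on all 8 arrays and no floor pattern. For such a probe the block, the batch, the filters, gene means, floor treatment and eBayes settings leave it fixed. The limma adjusted p of Mef2a ran from 0.0283 to 0.99976 over the 24 alternatives. Mef2c probe M300000695 ranged from -0.84 to 0.19 with 1 array left out: it turned positive when Neo replicate 2 (0.0157) or 3 (0.11) was dropped or HDAC4 replicate 4 was (0.19), and also without floor-pattern values (0.23). Mef2c probe M300000696 ranged from -0.29 to 3.2e-04, turning positive without HDAC4 replicate 4, and with the floor offset removed, with or without the batch (0.0023). The cause was not tested. The other 3 tested family probes kept their direction in 22 alternatives each, many of which likewise could not move their change. In the lists, called target probes numbered 3 with the batch and 3 without both arrays numbered 1, and 1 with batch and floor offset; coactivators and partners 1 and 1 in the first 2 of these; kinases 1 without both arrays numbered 1. The block called no family probe and no list probe. Without centring the 2-group count was again 21.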
